A study of Homo sapiens with 10 samples.

Results

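The 35 genes described here code for the enzymes that make cholesterol and for the proteins that sense and adjust its level. They comprise 7 genes of the mevalonate steps, 11 of the steps from squalene to cholesterol, 6 of sterol control, 7 of fatty acid synthesis, which is driven by the same factors, and 4 of the LXR branch. They were chosen by symbol, and all 35 were found among the 19590 genes measured by RNA-Seq in MV4-11 cells, a cell line of human acute myeloid leukemia (AML). Cells build cholesterol from acetyl-CoA by way of mevalonate and squalene. When sterols in the endoplasmic reticulum run low, SCAP escorts the SREBP factors (encoded by SREBF1 and SREBF2) to the Golgi, where they are cut and released to switch on the enzymes of this pathway, and the INSIG proteins hold SCAP back when sterols are plentiful. When sterols accumulate, the LXR nuclear receptors raise genes that dispose of them, such as the exporter ABCA1, which macrophages use to shed cholesterol.

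The control group held 4 libraries from MV4-11 cells infected with a control CRISPR vector, and the IRF8 KO group held 4 libraries from MV4-11 cells in which the interferon regulatory factor IRF8 had been targeted by CRISPR. Both groups went through lentiviral infection and puromycin selection according to the study's methods, and were grown in the same serum-containing medium. The knockout cells were clones obtained by limiting dilution with 2 guide RNAs. The sources used here do not give the clone behind each knockout library, nor say that the replicates were separate cultures, so that the p-values measure the spread between these libraries, which may be technical. Clonal differences and the loss of IRF8 cannot be told apart in this design.

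Each library held between 39560072 and 65519047 reads on genes, of which the top 10 genes held 4.72% to 5.45%. All 35 members passed the filter on low values, a mean of at least 10 normalized counts (reads scaled by a size factor per library), as did 13110 genes in all. IRF8 itself had 36891, 15192, 43016 and 22535 normalized counts in control replicates 1 to 4 and 6377, 2401, 12903 and 7819.7 in IRF8 KO replicates 1 to 4. Every knockout library was below every control library, but transcript remained in all of them. The paper reports that IRF8 protein was absent from its knockout clones by Western blot, which RNA counts cannot show. The fitted log2 difference was -2.11 ± 0.51 (SE, adjusted p = 0.022, exact two-sided permutation test p = 0.029, the smallest that 4 libraries against 4 allow). In the control group, replicates 1 and 3 were the higher ones. Among the knockout libraries, replicate 2 was the lowest and replicate 3 the highest. Without control replicate 1 or 3 or IRF8 KO replicate 1, the adjusted p was between 0.053 and 0.059.

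Of the 10 genes of the myeloid marker list, 7 had a log2 fold change above 0 and 3 below. MPO, ITGAM and PTPRC were called higher in the knockout libraries and none lower. CD33, CSF1R and FLT3 were at -0.34, -0.27 and -0.21. With the replicate block 5 were higher and 1 lower (CD33, limma adjusted p = 0.049). The summed level of the 10 myeloid marker genes ran from 79274 to 93289 normalized counts in the control and from 104019 to 341513 in the knockout libraries. The upper value came from LYZ, with 248604 normalized counts in IRF8 KO replicate 1 and at most 39385 in the other three. Of the other markers, 3 of 6 lymphoid genes (CD3E, CD3D and MS4A1) were at or near 0 in all libraries. The erythroid factor KLF1 was called higher at a low level, from 7.5 ± 2.0 to 28.3 ± 11.7 normalized counts (SD, n = 4), and the megakaryocytic integrin ITGA2B, at 9729 ± 4739 and 4961 ± 3578 (SD, n = 4), was called lower with the replicate number as a block (limma adjusted p = 0.0044) but not without it (0.19). The keratin genes KRT8 and KRT18 were called lower. PECAM1, listed with them as stromal and epithelial, had a log2 fold change of 0.82 (limma adjusted p = 0.46). It had up to 1976 normalized counts in the knockout libraries of this leukemia line. The 6 stromal and epithelial genes together summed to between 2009 and 4101 normalized counts in the control and between 402 and 2043 in the knockout libraries. The part of these shifts in the values of the sterol genes was not tested, and in bulk RNA fewer cells of a type and less RNA per cell cannot be told apart.

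Few of the sterol genes passed the test between knockout and control. At an adjusted p below 0.05, 1 of the 35 genes was called higher in the knockout libraries (PMVK), against 8.65% of all tested genes, and 1 was called lower (LSS), against 9.56%. At the threshold of the study, an unadjusted p below 0.01 together with a 2-fold difference, no member was called in either direction (nor with edgeR, while DESeq2 called MYLIP), against 4.78% of all tested genes higher and 6.12% lower. At an unadjusted p below 0.05, 6 members were higher in limma, against 15.6% of all tested genes, and 4 were lower, against 16%. The median log2 fold change of the 35 genes was 0.16, with 22 above and 13 below 0, beside a median of -0.00 over all tested genes. The control and knockout libraries did not overlap in 4 members. PMVK and SCAP lay above all control libraries, where 12.3% of all tested genes did, and HMGCS1 and LSS lay below all of them, where 13% did.

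More members were called once the replicate number was entered as a block, which compares each knockout library with the control library of the same number. The sources used here do not say that same-numbered libraries were paired. The data did not tell number 1 from 3, or 2 from 4, as the partner, so calls with the block and counts over the 4 pairs rest on an assumed pairing. With the block, 5 members were higher (PMVK, SREBF1, SREBF2, INSIG2 and STARD4), against 14.2% of all tested genes, and 3 were lower (HMGCS1, LSS and MYLIP), against 14.6%. The knockout value was above its same-numbered control value in all 4 pairs for 7 members (PMVK, NSDHL, SREBF1, SREBF2, SCAP, INSIG2 and STARD4), where 24% of all tested genes were, and below it in all 4 pairs for 3 members (HMGCS1, LSS and MYLIP), where 23.8% were. Of the 5 higher genes, 4 belong to the 6 genes of sterol control. PMVK and MYLIP were called with the block whichever of the 4 pairs was left out. Calls gained were DHCR7 and ABCA1, higher without pair 2, FDFT1, higher without pair 4, and SC5D, lower without pair 1. The other calls made with all 4 pairs were each lost without some of the pairs. SREBF1 was lost without pair 3 or 4, STARD4 without pair 1 or 3, SREBF2 without pair 1, 2 or 3, INSIG2 without pair 1, 3 or 4, HMGCS1 without pair 1, 2 or 4 and LSS without pair 2, 3 or 4.

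**Figure D1:**
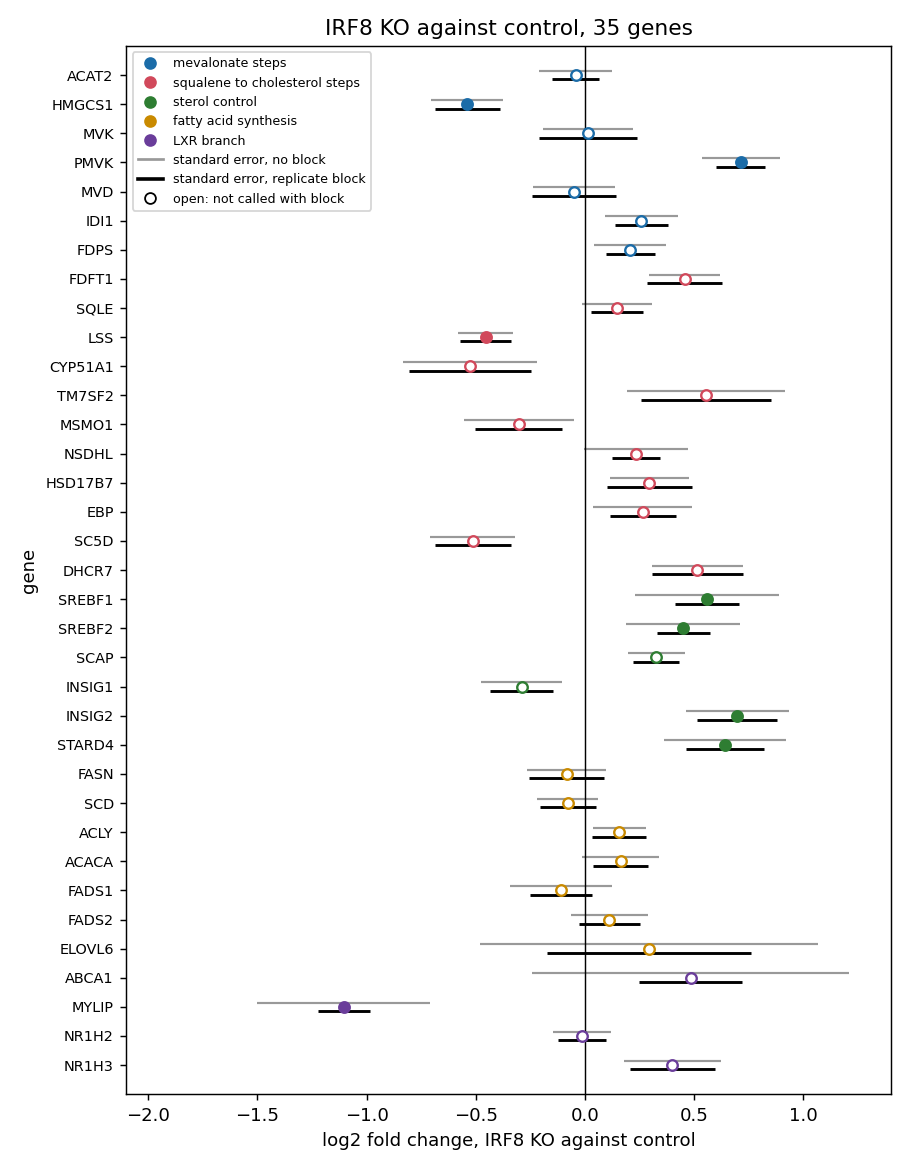
Log2 fold change of IRF8 KO against control on the x axis for each of the 35 genes on the y axis, coloured by role, with the standard error of the fit without a block (grey) and with the replicate number as a block (black). Filled points are the 8 genes called with the block, 5 to the right of 0 and 3 to the left, and MYLIP lies farthest from 0 at -1.10.

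The promoters of 31 of the 35 genes were at hand as RefSeq windows of 300 bases around the gene start (GRCh38.p14), in 44 windows. A sterol regulatory element spelled TCACNCCAC, the site that SREBP binds, was found on either strand in 1 of the 44 windows (2.27%), that of SREBF2, against 1.13% of 35116 windows of all genes. The CCAAT box, bound by the SREBP partner NF-Y, was found in 26 windows (59.1%), against 34.6% of all, and the E-box CACGTG in 6 (13.6%), against 7.26%. These are matches of letters and say nothing on binding, and in the windows shown no match overlaps another. To show how called genes differ in these letters, the 250 bases before the start are given for SREBF2, HMGCS1, LSS, PMVK and MYLIP, each called with the block, 5′ to 3′ on the strand of the gene, with the sterol regulatory element and the CCAAT box (or ATTGG, the same box on the other strand) in capitals.
SREBF2 (chr22:41832855-41833104, plus strand): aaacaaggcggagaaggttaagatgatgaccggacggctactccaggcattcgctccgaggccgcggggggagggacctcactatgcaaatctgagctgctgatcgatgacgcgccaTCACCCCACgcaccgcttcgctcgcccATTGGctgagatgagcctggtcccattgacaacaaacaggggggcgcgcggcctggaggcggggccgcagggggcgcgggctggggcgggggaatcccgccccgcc
HMGCS1 (chr5:43313413-43313662, minus strand): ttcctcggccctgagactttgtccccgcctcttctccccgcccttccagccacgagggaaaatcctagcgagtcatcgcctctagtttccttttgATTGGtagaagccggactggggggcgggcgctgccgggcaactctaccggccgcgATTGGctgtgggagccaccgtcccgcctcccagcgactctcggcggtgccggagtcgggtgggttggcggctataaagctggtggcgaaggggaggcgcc
LSS (chr21:46228775-46229024, minus strand): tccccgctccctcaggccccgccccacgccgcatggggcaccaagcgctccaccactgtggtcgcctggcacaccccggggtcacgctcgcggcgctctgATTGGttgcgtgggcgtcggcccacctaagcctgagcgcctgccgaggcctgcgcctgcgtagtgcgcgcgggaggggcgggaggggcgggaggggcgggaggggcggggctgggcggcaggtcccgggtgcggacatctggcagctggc
PMVK (chr1:154936720-154936969, minus strand): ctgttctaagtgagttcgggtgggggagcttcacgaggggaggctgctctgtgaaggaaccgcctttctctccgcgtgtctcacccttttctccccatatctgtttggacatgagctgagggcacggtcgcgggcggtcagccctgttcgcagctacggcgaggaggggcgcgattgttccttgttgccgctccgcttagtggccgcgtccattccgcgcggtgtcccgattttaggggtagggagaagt
MYLIP (chr6:16128836-16129085, plus strand): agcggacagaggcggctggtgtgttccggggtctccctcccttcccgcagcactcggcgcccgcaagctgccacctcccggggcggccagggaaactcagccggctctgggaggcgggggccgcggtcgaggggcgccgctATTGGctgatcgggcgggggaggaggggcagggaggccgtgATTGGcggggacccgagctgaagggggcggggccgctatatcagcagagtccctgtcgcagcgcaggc
SREBF2 is the only one of the 5 with the sterol regulatory element in this spelling. HMGCS1, shown with the farther upstream of its 2 windows, and MYLIP each hold the CCAAT box in more than 1 place, LSS holds it once and PMVK does not hold it. Of the genes called with the block but not shown, STARD4 holds the CCAAT box in its window, while SREBF1 and INSIG2 do not. A link between these letters and the changes was not tested.

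The genes of the mevalonate steps differed in sign. Of the 7 genes, 4 had a log2 fold change above 0 and 3 below, with a median of 0.01, and 1 was called. HMGCS1 makes HMG-CoA, the precursor of mevalonate, and is a classical target of SREBP. It had 3907, 4920.0, 3496 and 5887 normalized counts in control replicates 1 to 4 and 3112, 3133, 3082 and 2950.2 in IRF8 KO replicates 1 to 4. The knockout libraries were close to each other and all below the lowest control library. On the log2 scale HMGCS1 differed by -0.54 ± 0.17 (SE, adjusted p = 0.054, exact permutation test p = 0.029), so that HMGCS1 just missed the threshold, and with the replicate block the limma adjusted p was 0.034. It was also called when control replicate 3 was left out (adjusted p = 0.029). The highest HMGCS1 value was 1.68 times the lowest in the control group and 1.06 times the lowest in the knockout group.

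PMVK, the kinase that adds the second phosphate to mevalonate, was higher in the knockout cells. It had 1206, 888, 1191 and 944 normalized counts in control replicates 1 to 4 and 1757, 1373, 2221 and 1627 in IRF8 KO replicates 1 to 4. All knockout libraries exceeded all control libraries, and within each group replicates 1 and 3 were above replicates 2 and 4. The knockout mean was 1.65 times the control mean, a fitted log2 difference of 0.71 ± 0.18 (SE, adjusted p = 0.025, 0.0040 with the replicate block, exact permutation test p = 0.029). The difference was nearly equal in replicate pairs 1 and 3, at 0.72 on the log2 scale, and in pairs 2 and 4, at 0.71. The call was lost when control replicate 2 or 4 or IRF8 KO replicate 1, 3 or 4 was left out, with limma adjusted p-values of up to 0.067.

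The other mevalonate genes were not called by either fit. ACAT2, which joins a pair of acetyl-CoA molecules, had a log2 fold change of -0.04, and the values of MVK and MVD, the first kinase and the decarboxylase, were 0.01 and -0.05. IDI1, the isomerase that prepares the isoprene unit, was at 0.26, and FDPS, which assembles farnesyl diphosphate, at 0.21. FDPS and IDI1 have 10 and 3 annotated pseudogenes, with which reads can be shared, so their counts are less certain. The same limit holds for CYP51A1, HSD17B7 and SCD, described below, with 3, 2 and 1 annotated pseudogenes.

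Between squalene and cholesterol, 7 of 11 genes had a log2 fold change above 0, with a median of 0.23, and the 1 called gene lay below. LSS, which folds epoxysqualene into lanosterol, the first sterol of the pathway, had 2232, 1984, 2023 and 2159 normalized counts in control replicates 1 to 4 and 1756, 1467, 1639 and 1298 in IRF8 KO replicates 1 to 4. The groups did not overlap, and LSS was the steadiest of these genes in the control group, where the highest library was 1.12 times the lowest. Fitting LSS gave a log2 fold change of -0.45 ± 0.13 (SE, adjusted p = 0.036, 0.026 with the replicate block, exact permutation test p = 0.029). The gene is on chromosome 21, and the median over the 129 tested genes of that chromosome was also lower in the knockout cells, by a log2 value of -0.33, with every knockout library between -0.33 and -0.32. Set against this median library by library, LSS differed by -0.11 (exact two-sided permutation test, p = 0.34). LSS is the only member on this chromosome. Its call was lost when any 1 control library, or IRF8 KO replicate 2 or 4, was left out, with limma adjusted p-values of up to 0.10.

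SQLE, the squalene epoxidase and an often limiting step of the pathway, had 5431, 4245, 5197 and 5734 normalized counts in control replicates 1 to 4 and 6823, 4739.9, 6408 and 4988 in IRF8 KO replicates 1 to 4. The groups overlapped, and the 2 highest values were those of IRF8 KO replicates 1 and 3. In limma, SQLE differed by 0.15 ± 0.16 (log2, SE, adjusted p = 0.59).

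FDFT1, the squalene synthase, had 9154, 11053, 7964 and 12294 normalized counts in the control and 15390.0, 12948, 14998 and 11806 in the knockout libraries. DHCR7, the reductase of the last step, had 1774, 1942, 1457 and 1984 in the control and 3314, 1819, 3094 and 2229 in the knockout libraries. For both genes, replicates 1 and 3 were the lowest libraries of the control group and the highest of the knockout group. Their log2 fold changes were 0.46 ± 0.16 (SE, adjusted p = 0.087) for FDFT1 and 0.52 ± 0.21 (SE, adjusted p = 0.13) for DHCR7. DHCR7 was called when IRF8 KO replicate 2 was left out (limma adjusted p = 0.039).

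The remaining genes of these steps passed the threshold in neither fit. CYP51A1, the lanosterol demethylase, had a log2 fold change of -0.53, with knockout values from 789 to 1917 normalized counts and the highest in replicate 1. MSMO1 and SC5D, an oxidase and a desaturase of sterols, were at -0.30 and -0.51. TM7SF2, a sterol reductase, was at 0.55, and its control values fell into a low pair, 124 and 106 normalized counts in replicates 1 and 3, and a high pair, 286 and 271 in replicates 2 and 4. The dehydrogenase NSDHL, the reductase HSD17B7 and the isomerase EBP had log2 fold changes of 0.23, 0.29 and 0.27.

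The genes of sterol control showed the highest median of the 5 roles, with a log2 fold change of 0.50 and 5 of 6 genes above 0. SREBF2, the only gene with a match to TCACNCCAC among the 31 with promoter windows, encodes the SREBP that mainly drives cholesterol synthesis. It had 8748, 13625, 7587 and 15231 normalized counts in control replicates 1 to 4 and 15006, 17924, 10523 and 17008 in IRF8 KO replicates 1 to 4. In both groups replicates 2 and 4 were above replicates 1 and 3, and the groups overlapped. The fitted log2 difference was 0.45 ± 0.26 (SE, adjusted p = 0.28), and with the replicate block the standard error was 0.12 and the adjusted p = 0.031.

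SREBF1, whose product mainly drives fatty acid synthesis and which is itself a target of LXR, had 5080.2, 8275, 3574 and 7458 normalized counts in control replicates 1 to 4 and 5621, 10979.5, 6936 and 12302 in IRF8 KO replicates 1 to 4. Replicates 2 and 4 were again the higher ones in both groups, and each knockout library exceeded the control library of its number. On the log2 scale SREBF1 differed by 0.56 ± 0.33 (SE, adjusted p = 0.29), and with the replicate block the standard error was 0.15 and the adjusted p = 0.028. The counts do not separate the transcripts of SREBF1 that differ in their first exon.

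The paired retention genes INSIG1 and INSIG2 differed in sign. INSIG1, itself a target of SREBP, had 5173, 6321, 4132 and 7137 normalized counts in control replicates 1 to 4 and 4008, 5419, 4518 and 4396 in IRF8 KO replicates 1 to 4. The groups overlapped, with a fitted log2 difference of -0.29 ± 0.18 (SE, adjusted p = 0.33). INSIG2 had 619, 1183, 722 and 999.9 in the control and 1166, 1191, 1461 and 1811 in the knockout libraries, so that the pair of number 2 was nearly equal and the other three differed. Fitting INSIG2 gave a log2 fold change of 0.70 ± 0.24 (SE, adjusted p = 0.074, 0.028 with the replicate block). INSIG2 was also called when control replicate 2 was left out (limma adjusted p = 0.038). Whether the 2 INSIG genes differed from each other in their response was not tested.

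STARD4, which carries cholesterol between membranes, had 534, 861, 402 and 974 normalized counts in control replicates 1 to 4 and 1018, 1129, 848 and 1101 in IRF8 KO replicates 1 to 4. Control replicates 1 and 3 were the lowest of the 8 libraries, and control replicates 2 and 4 overlapped with the lowest knockout library. In limma, STARD4 differed by 0.64 ± 0.28 (log2, SE, adjusted p = 0.15, 0.035 with the replicate block). SCAP, the escort of the SREBPs, had 4045, 3857, 3874 and 3415 in the control and 5253, 4232, 5530.5 and 4161 in the knockout libraries. No knockout library overlapped with a control library (exact permutation test, p = 0.029), but the log2 fold change of 0.33 was called by neither fit (adjusted p = 0.12, or 0.056 with the block).

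**Figure D2:**
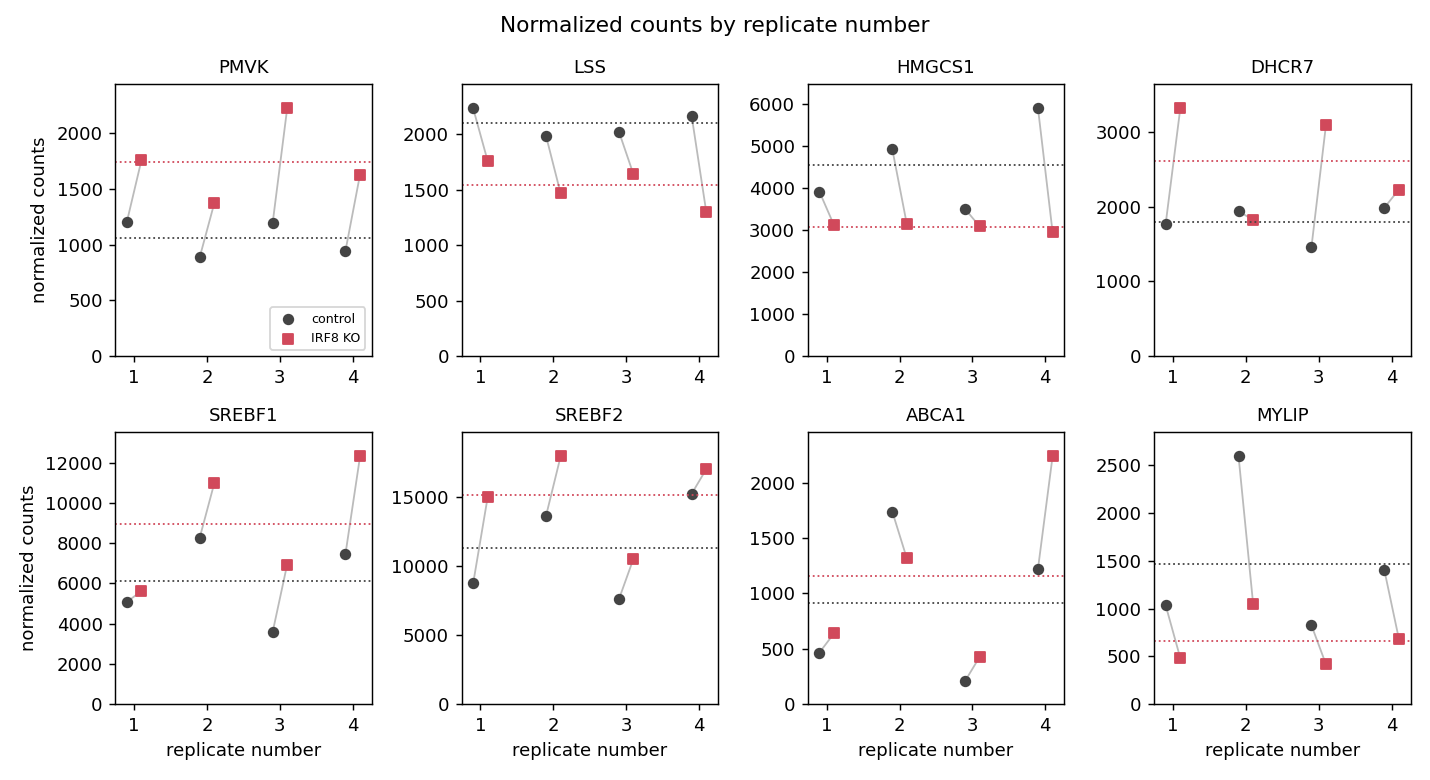
Normalized counts (y axis, from 0) of 8 of the genes in each library, by replicate number (x axis), with control libraries as black circles and IRF8 KO libraries as red squares, grey lines joining the same number and dotted lines at the group means. LSS, HMGCS1 and MYLIP were lower and PMVK, SREBF1 and SREBF2 higher in the knockout library of all 4 numbers, while DHCR7 differed mainly in numbers 1 and 3 and ABCA1 was high in numbers 2 and 4 of both groups.

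No gene of fatty acid synthesis was called by limma with or without the block, by edgeR or by DESeq2, or had an unadjusted p below 0.05 (0 of 7 genes), and the median log2 fold change of the 7 genes was 0.11. FASN, the fatty acid synthase, had 32312, 17814, 26713 and 21219 normalized counts in control replicates 1 to 4 and 21377, 23901, 21422 and 23661 in IRF8 KO replicates 1 to 4. The control values were widely spread and enclosed all knockout values, and the log2 fold change was -0.08 ± 0.18 (SE, adjusted p = 0.81). SCD, which adds the double bond of oleate, had 31898, 26594, 26581 and 30409.9 in the control and 22873, 29585, 25036 and 32525 in the knockout libraries. These groups overlapped as well, with a fitted log2 difference of -0.08 ± 0.14 (SE, adjusted p = 0.76).

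ACLY and ACACA, which supply acetyl-CoA and malonyl-CoA, had log2 fold changes of 0.16 and 0.16. The desaturases FADS1 and FADS2 were at -0.11 and 0.11. Both genes overlap on chromosome 11 but lie on opposite strands. Reads of 1 gene can be counted for the other only if the strand was ignored, which the sources used here do not state. In all, 9 of the 35 genes overlap another coding gene. ELOVL6, an elongase, had the widest spread of the 35 genes within a group, from 12.8 to 207 normalized counts in the knockout libraries, and a log2 fold change of 0.29 ± 0.77 (SE).

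In the LXR branch, the largest difference was that of MYLIP, an E3 ubiquitin ligase induced by LXR that limits the uptake of lipoprotein cholesterol. MYLIP had 1034, 2593, 827 and 1407 normalized counts in control replicates 1 to 4 and 484, 1049, 417 and 687 in IRF8 KO replicates 1 to 4. The groups overlapped because IRF8 KO replicate 2 was above the lowest control libraries, yet in each of the 4 pairs the knockout library was below the control library of its number. The control mean was 2.22 times the knockout mean. The fitted log2 difference was -1.10 ± 0.40 (SE, adjusted p = 0.091, exact permutation test p = 0.086), and with the replicate block the standard error was 0.12 and the adjusted p = 8.7e-04. MYLIP was also called when IRF8 KO replicate 2 was left out (limma adjusted p = 0.046). The difference was -1.04 in pairs 1 and 3 and -1.17 in pairs 2 and 4 on the log2 scale.

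ABCA1, the cholesterol exporter and the best known target of LXR, did not share this pattern. It had 467, 1738, 210.5 and 1224 normalized counts in control replicates 1 to 4 and 639, 1315, 428 and 2236 in IRF8 KO replicates 1 to 4. The values separated by replicate number and not by genotype, with replicates 2 and 4 above 1 and 3 in both groups, and the mean of replicates 2 and 4 was 4.37 times that of replicates 1 and 3 in the control and 3.33 times in the knockout libraries. On the log2 scale ABCA1 differed by 0.49 ± 0.73 (SE, adjusted p = 0.71, 0.17 with the replicate block). The receptors themselves, NR1H2 (LXR beta) and NR1H3 (LXR alpha), had log2 fold changes of -0.01 and 0.40 and were not called by either fit.

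Genotype was not the only division among the libraries. The division into replicates 1 and 3 against 2 and 4 was seen in earlier results of these data and the sources used here do not say what it stands for, so it is described with no test. In 21 of the 35 genes the log2 difference between the 2 sets of replicates was larger than that between the genotypes, where this held for 49.7% of all tested genes. The median share of the variation between libraries that went with the division was 31.8% and that with genotype 25.9%, against 25.8% and 26.3% over all tested genes. The fatty acid genes differed most in this respect, with median shares of 47.2% for the division and 5.53% for genotype.

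In both genotypes, replicates 1 and 3 lay above replicates 2 and 4 in 6 members (ACAT2, PMVK, FDPS, NSDHL, EBP and SCAP), where 19.3% of all tested genes did. They lay below in both genotypes in 7 members (SREBF1, SREBF2, STARD4, FADS1, ELOVL6, ABCA1 and MYLIP), where 18.9% did. Both counts are close to the share over all tested genes. NSDHL differed by 0.59 between replicates 1 and 3 and replicates 2 and 4 in the control and by 0.69 in the knockout libraries on the log2 scale. The same difference was -0.88 and -0.90 for SREBF1 and -2.21 and -1.71 for ABCA1.

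**Figure D3:**
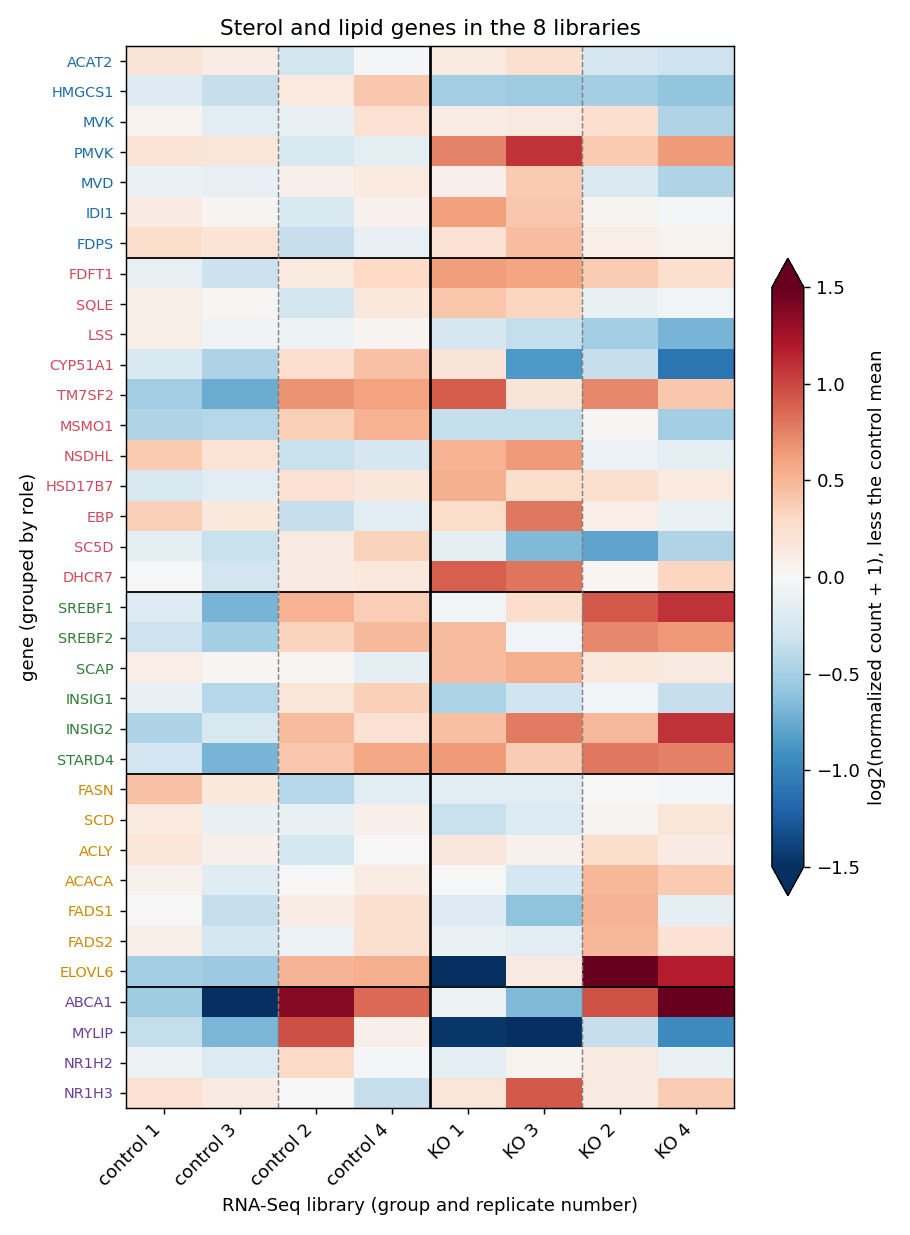
Log2(normalized count + 1) of the 35 genes (y axis, label colour by role) in the 8 libraries (x axis, replicates 1 and 3 beside each other and dashed lines between the sets), less the mean of the control libraries. SREBF1, SREBF2 and ABCA1 are higher in replicates 2 and 4 than in 1 and 3 in both groups, and DHCR7 and FDFT1 are highest in IRF8 KO replicates 1 and 3; the colour scale ends at 1.5 in either direction.

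The division ran in opposite directions in the 2 genotypes for 5 members. MVD, FDFT1, HSD17B7 and DHCR7 had replicates 1 and 3 below 2 and 4 in the control and above them in the knockout libraries, which 2.52% of all tested genes had. FASN had the opposite order, as did 2.12% of all tested genes. On the log2 scale, replicates 1 and 3 differed from 2 and 4 by -0.29 in the control and 0.67 in the knockout libraries for DHCR7, by -0.41 and 0.20 for HSD17B7 and by -0.22 and 0.57 for MVD. Among the 11 genes from squalene to cholesterol, 7 were lower in control replicates 1 and 3, with a median difference of -0.41, and 2 were lower in IRF8 KO replicates 1 and 3, with a median difference of 0.30.

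The difference between knockout and control libraries was also read pair by pair. It was larger in both of pairs 1 and 3 than in either of pairs 2 and 4 for 17 of the 35 genes, where 22.6% of all tested genes had this order. These were 9 of the 11 genes from squalene to cholesterol (all but NSDHL and EBP), 4 of the 6 sterol control genes (SREBF2, SCAP, INSIG2 and STARD4), 3 of the 7 mevalonate genes (HMGCS1, MVD and IDI1) and NR1H2 of the LXR branch. It was smaller in both of pairs 1 and 3 for 4 genes, all of fatty acid synthesis (FASN, SCD, ACLY and ACACA), where 24% of all tested genes had this order. The genes share their 8 libraries and are not independent of each other, and no test was made of these counts.

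By role, the median log2 difference between knockout and control of the genes from squalene to cholesterol was 0.28 in pairs 1 and 3 and -0.02 in pairs 2 and 4. For the mevalonate genes it was 0.19 and -0.13, and for sterol control 0.59 and 0.28. The fatty acid genes had -0.23 in pairs 1 and 3 and 0.29 in pairs 2 and 4. Over all tested genes the 2 medians were -0.02 and 0.02. For single genes, DHCR7 was 0.99 in pairs 1 and 3 and 0.04 in pairs 2 and 4, and CYP51A1 0.01 and -1.06. With 2 pairs of each kind, an exact permutation test cannot reach a p below 0.05 in either set.

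**Figure D4:**
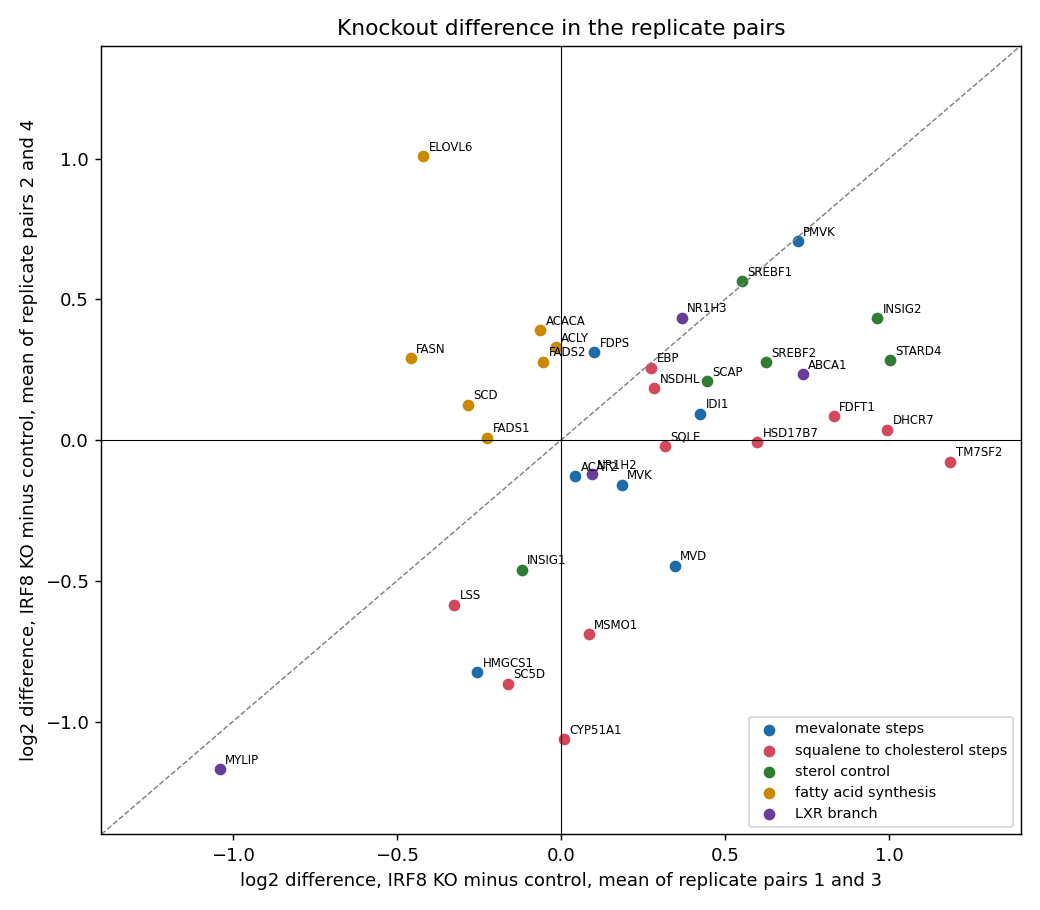
Log2 difference of IRF8 KO minus control for each of the 35 genes, as the mean of replicate pairs 1 and 3 (x axis) and of pairs 2 and 4 (y axis), coloured by role; on the dashed line both are equal. All 11 genes from squalene to cholesterol lie below the line, the 7 fatty acid genes lie above it, and PMVK, SREBF1 and MYLIP lie near it.

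A further 28 genes of sterol and lipid handling, not among the 35, were looked at in the same fits. Of these, 26 passed the filter, 5 were called higher in the knockout libraries, against 8.65% of all tested genes, and none lower in limma, against 9.56%. At an unadjusted p below 0.05, 7 were higher in limma, against 15.6% of all tested genes, and 2 lower, against 16%. Lower genes numbered 0 with edgeR, against 1222 of the 13110 tested genes, and 1 with DESeq2 (ACSS2), against 1723 of them. ACSS2, which makes acetyl-CoA from acetate, had a log2 fold change of -0.86 and is on chromosome 20, where the median over the 351 tested genes was -0.92. Set against this median library by library, a comparison chosen after the values were seen, ACSS2 differed by 0.065 (exact two-sided permutation test, p = 0.89). MBTPS1, the protease that makes the first cut in the SREBPs in the Golgi, had 5083, 4188, 4812 and 4013 normalized counts in control replicates 1 to 4 and 11589, 7731, 9124 and 8451 in IRF8 KO replicates 1 to 4. The groups were far apart, with a fitted log2 difference of 1.02 ± 0.15 (SE, adjusted p = 0.0024). NPC2, which hands cholesterol out of the lysosome, rose from 836 ± 118 (SD, n = 4) to 1944 ± 479 (SD, n = 4), a log2 fold change of 1.19 (limma adjusted p = 0.0034).

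CYP27A1, which makes a side-chain oxysterol, was low in all libraries and rose from 34.5 ± 14.0 (SD, n = 4) to 116 ± 48.6 (SD, n = 4) normalized counts, a log2 fold change of 1.69 (limma adjusted p = 0.024). STARD3, a sterol transporter of late endosomes, and RNF139, an E3 ligase of the endoplasmic reticulum, rose by 0.55 and 0.40 on the log2 scale (limma adjusted p = 0.039 and 0.039). With the replicate block, 9 of the 26 genes were higher, against 14.2% of all tested genes, and 3 were lower (MBTPS2, SOAT1 and ACSS2), against 14.6%. MBTPS2, the protease of the second SREBP cut, had a log2 fold change of -0.49 and was lower with the block (adjusted p = 0.020) but not without it (limma adjusted p = 0.16). MBTPS1 and NPC2 were called whichever library was left out, and they were the only 2 called higher without control replicate 1 or 3 or IRF8 KO replicate 1 or 4.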

How the data were processed

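RNA-Seq libraries (TruSeq Stranded mRNA) of 4 control and 4 IRF8 KO MV4-11 samples were analysed. According to the study's methods, the authors aligned reads with RNA-Star to GENCODE v32 transcripts, counted them with featureCounts and used DESeq2. No source used here states the strand setting. The deposited normalized counts are a signal in which the authors divided each count by the size factor of the library, and 100% of values gave whole reads (within 0.01 read). The table calls the control columns WT. A deposited table of the authors' own comparison (mean, log2 fold change, standard error, Wald score, p-value, adjusted p-value) was not used, and the ChIP samples were not analysed here.

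Values were tested as log2(normalized count + 1) with limma 3.58.1 (R 4.3.3; trended, robust prior variance, Benjamini-Hochberg over the 13110 genes whose mean was at least 10), without a block, and called at an adjusted p below 0.05. Fold changes are on that scale. Permutation tests were exact and two-sided. Alternatives were pseudocounts of 0.5 and 5, no filter, a mean of at least 100, upper quartile and quantile scaling, tests of the recovered reads (edgeR 4.0.16, DESeq2 1.42.0), a block for the replicate number, and leaving out each library. Scripts were tested on simulated data. Deviations from the group mean correlated at 0.37, 0.48, 0.45 and 0.50 between control and knockout libraries of the same number over all tested genes. Between numbers 1 and 3 or 2 and 4 they correlated at 0.40 to 0.47. Control replicate 1 correlated more with IRF8 KO replicate 3 (0.47) than with IRF8 KO replicate 1 (0.37). The data thus do not single out same-numbered pairs, and the sources used here give no pairing, so the block rests on the numbers alone. By the rule for named genes, each member is accounted for, full values are given for called members and for HMGCS1, SQLE, SREBF1, SREBF2, INSIG1, SCD, FASN, ABCA1 and MYLIP, and of the further lipid genes only called ones are named. The full values of FDFT1, DHCR7, INSIG2, STARD4 and SCAP were added after they were seen. The members and lists were chosen with earlier results of these data known. Promoters are from RefSeq, and those of ACAT2, FDFT1, SQLE and FASN were not used here. The lymphoid and the erythroid and megakaryocytic marker lists are reported in part.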

Additional observations from a re-analysis of the deposited data

How the results depend on the processing

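The log2 fold changes of the members kept their direction under all alternatives that kept every library. Counts of called members moved with the test, as did the counts over all tested genes. Of the members, 2 were higher with DESeq2 (PMVK and INSIG2), 5 with the replicate block and 0 at the threshold of the study (p below 0.01 and 2-fold), against 1 in limma without a block. Over all tested genes these counts were, in the same order, 1679, 1857, 627 and 1134. Lower members numbered 2 with edgeR (HMGCS1 and LSS), 3 with DESeq2 (HMGCS1, LSS and MYLIP), 3 with the replicate block and 0 at the threshold of the study, against 1 in limma without a block. Over all tested genes these counts were, in the same order, 1222, 1723, 1912, 802 and 1253. Leaving out 1 library gave 0 to 2 higher and 0 to 1 lower, where all tested genes gave 759 to 1165 higher and 906 to 1294 lower. With the replicate block, leaving out 1 pair (an alternative chosen after seeing the data) gave 1 to 6 higher members (2 without pair 1, 6 without pair 2, 1 without pair 3 and 4 without pair 4) and 1 to 3 lower. Over all tested genes this gave 1052 to 1695 higher and 1228 to 1731 lower. Of the further lipid genes, 9 were higher (against 14.2% of all tested genes) and 3 lower (against 14.6%) with the replicate block, and 1 was lower with DESeq2. At the threshold of the study 3 were higher (against 4.78%), and leaving out 1 library gave 2 to 5 higher and 0 to 1 lower. IRF8 ranged from -2.46 to -1.65 when 1 library was left out, with adjusted p-values of 0.053 to 0.059 without control replicate 1 or 3 or IRF8 KO replicate 1. LSS relative to chromosome 21 ranged from -0.18 to -0.032 without 1 library, and LSS itself, not set against its chromosome, was at -0.45 (exact permutation test, p = 0.029). Leaving out 1 library turned the sign of members that were near 0 or widely spread. The range was -0.14 to 0.048 for ACAT2, -0.068 to 0.17 for MVK, -0.198 to 0.084 for MVD, -0.22 to 0.062 for FASN, -0.16 to 0.0053 for SCD, -0.31 to 0.058 for FADS1, -0.016 to 0.21 for FADS2, -0.24 to 1.07 for ELOVL6, -0.075 to 0.94 for ABCA1 and -0.0799 to 0.0828 for NR1H2. The cause of these changes was not tested. The block changed no call of a member other than those given. ELOVL6 had the fewest reads of the members and was not tested at a mean of at least 100.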
